A study of Homo sapiens with 12 samples.

Results

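Depletion of Mina53 was examined in HCT116 cells that lack p53. HCT116 is a human colon cancer cell line, and the p53-/- line was made from the p53+/+ line by removal of p53, the tumour suppressor that switches on arrest and death genes under stress. The members are the 6 of 12 libraries of the series whose sample titles name p53-/- cells. The description covers all genes that passed a filter on low values over the 12 libraries. The p53-/- depleted group holds 3 libraries (titles with KD) and the p53-/- scrambled group holds 3 (titles with scr). The other 6 libraries, 3 of depleted and 3 of scrambled p53+/+ cells, enter the shared estimate of the spread and the comparisons of the depletion effect between lines. Poly(A) RNA was sequenced on an Illumina HiSeq. The sources used here do not give the depletion reagent, the time of harvest, whether replicates were separate cultures or whether the p53-/- line is a single clone. Loss of Mina53 and other effects of the reagent cannot be told apart with 1 reagent label and 1 control, and the p-values rest on the spread of these libraries alone, which may be technical.

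The gene RIOX2 (older symbol MINA) encodes Mina53. It belongs to the JmjC oxygenases, enzymes that use iron, oxygen and 2-oxoglutarate to hydroxylate proteins or demethylate histones, it sits largely in the nucleolus, and its known substrate is a histidine of the ribosomal protein RPL27A. The gene was described as a MYC target and is highly expressed in several carcinomas, colon among them. In cells with p53, disturbance of the nucleolus is known to stabilise p53, and the p53-/- line addresses which RNA changes occur without it.

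Levels are in FPKM, which divides fragments by transcript length and by library size. Library totals in p53-/- cells were 352864 to 354992 FPKM in depleted and 348822 to 351781 in scrambled libraries. The share of mitochondrial protein-coding transcripts was 13.8 to 14.3% in depleted and 9.95 to 10.9% in scrambled libraries, and counts with these genes left out are given below. Epithelial markers of the line summed to 2045 to 2150 FPKM in depleted and 2042 to 2198 in scrambled libraries. Markers of leukocytes, erythroid, endothelial, liver and neuronal cells each summed to at most 10.2 FPKM in every p53-/- library, and the pan-leukocyte gene PTPRC was close to 0.

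The depleted gene was checked first. RIOX2 stood at 2.11, 2.21 and 1.75 FPKM in the depleted libraries, against 9.31, 8.89 and 9.07 in the scrambled libraries, so the groups are far apart and each is tight. Depleted cells kept 22.3% of the scrambled level (log2 fold change -1.74, SE 0.0701, limma adjusted p = 2.03e-09).

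Fold changes here are differences of mean log2(FPKM + 1), depleted minus scrambled, tested by limma in 1 fit over all 12 libraries. Of 13728 genes tested, 8071 (58.8%) passed an adjusted p of 0.05, with 3968 (28.9%) higher and 4103 (29.9%) lower in depleted cells. Most of these changes were small on the log2(FPKM + 1) scale. In all 157 genes rose and 202 fell by at least 1 on the log2 scale, a total of 359 that was 803 with a pseudocount of 0.1. Of the called genes 5664 changed by less than 0.5, and the median over all genes tested was -0.0028. The 3 depleted and 3 scrambled libraries did not overlap in 8659 genes (63.1%), so a lack of overlap alone says little about a single gene. The share of genes called grew with the mean level in p53-/- libraries. It was 36.7% of the 971 genes below 1 FPKM, 50.2% of genes at 1 to 5 FPKM and 69.3% of genes at 20 to 100 FPKM. In a bulk sample, fewer cells that make an RNA and less of it per cell cannot be told apart.

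**Figure D1:**
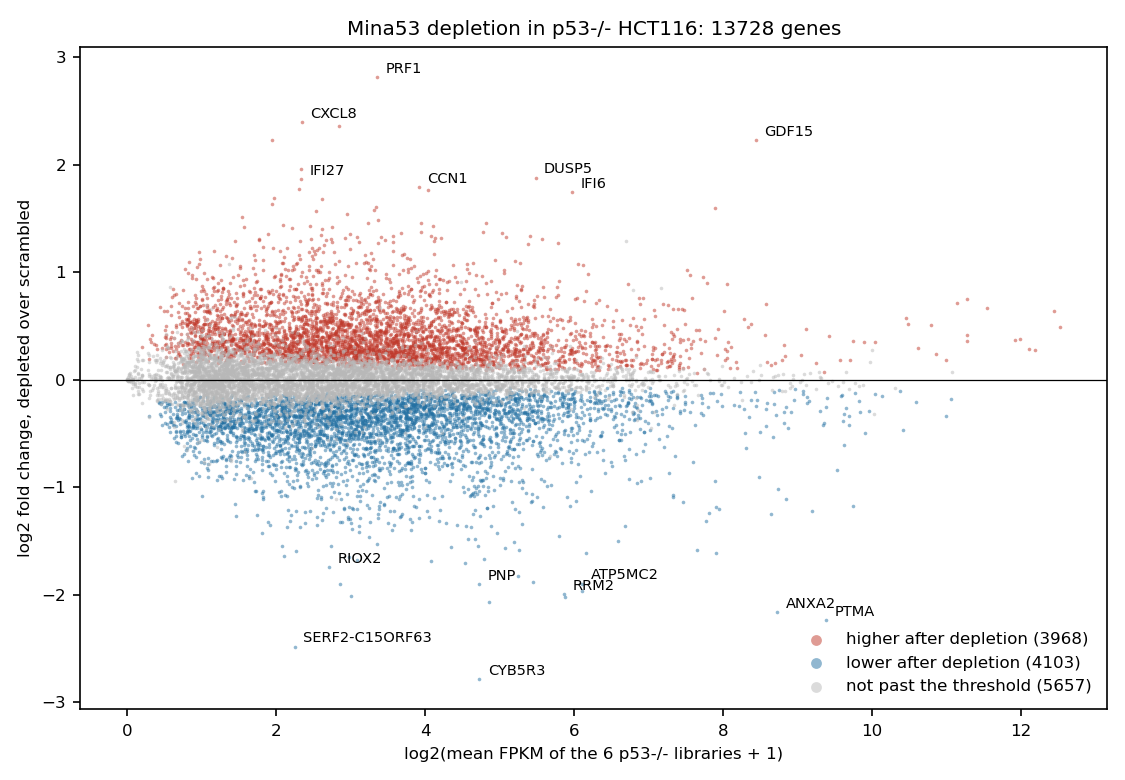
Log2 fold change of each of 13728 genes in p53-/- cells, depleted over scrambled (y axis), against its log2 mean FPKM + 1 over the 6 p53-/- libraries (x axis). Red points (3968) were higher and blue points (4103) lower past an adjusted p of 0.05, grey points did not pass, and the largest changes reach from PRF1 at 2.81 to CYB5R3 at -2.78.

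The 15 largest rises bring together a secreted stress cytokine, a chemokine, early response genes, interferon genes and a glucose transporter. PRF1, which encodes the pore-forming protein perforin of cytotoxic lymphocytes, stood first. It had 16.7, 17.2 and 17.1 FPKM in depleted and 1.50, 1.48 and 1.70 FPKM in scrambled libraries (log2 fold change 2.81, SE 0.0477, adjusted p = 5.71e-12). Of 16 genes of cytotoxic granules and lymphocyte surfaces matched in the table, 2 passed the filter on low values, PRF1 and the granule protease gene GZMM (log2 fold change 0.79), and the 6 lymphocyte surface genes among the 16 were below it. CXCL8, the neutrophil chemokine IL-8, was nearly off in scrambled cells, with 7.45, 8.42 and 6.76 FPKM in depleted and 0.619, 0.538 and 0.706 FPKM in scrambled libraries. GDF15, a cytokine made under many stresses, was the most abundant of the 15, with 569, 549 and 604 FPKM in depleted and 132, 118 and 115 FPKM in scrambled libraries. The microRNA gene MIR3189 lies within GDF15 and also ranked among the rises (1.78), and the reads of both cannot be separated here.

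SLC2A3 encodes the high-affinity glucose transporter GLUT3. Its libraries stood at 11.8, 10.7 and 10.8 FPKM in depleted and 1.39, 1.29 and 1.38 FPKM in scrambled cells. The Ras-related gene RASD1 had 6.43, 5.11 and 4.58 FPKM in depleted and 0.318, 0.274 and 0.460 FPKM in scrambled libraries. The small heat shock protein gene HSPB8 had 6.63, 6.83 and 7.69 FPKM in depleted and 1.21, 0.818 and 1.18 FPKM in scrambled libraries, and in none of these 3 genes did the groups overlap. The other rises were DUSP5 and ATF3 of the early response, the matricellular gene CCN1, the interferon-induced genes IFI27 and IFI6, all described below, the scaffold gene IQGAP2 (1.69), ANKRD46 (1.68) and the semaphorin gene SEMA7A (1.61). All 15 were also higher in depleted p53+/+ cells by the sign of the fold change, which lay between 0.41 and 3.39 there.

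The 15 largest falls included metabolic enzymes, transporters and 2 families with processed pseudogenes. CYB5R3, the cytochrome b5 reductase that passes electrons from NADH to lipid-modifying enzymes, had 5.70, 5.80 and 5.71 FPKM in depleted and 45.6, 45.3 and 45.3 FPKM in scrambled libraries. The fall was -2.78 on the log2 scale (SE 0.0531, adjusted p = 7.04e-12), with replicate values nearly equal within each group. PTMA, the acidic nuclear protein prothymosin alpha, had 232, 239 and 230.2 FPKM in depleted and 1057, 1136 and 1113 FPKM in scrambled libraries. ANXA2, a calcium-dependent membrane-binding protein, had 157, 145 and 159.9 FPKM in depleted and 716, 699 and 665 FPKM in scrambled libraries. Pseudogene copies of both fell with them, PTMAP2 (-2.02), PTMAP5 (-1.97) and ANXA2P2 (-2.07). Near-identical copies can share reads, so the split of each family among its loci is uncertain.

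RRM2 encodes the regulated subunit of ribonucleotide reductase, which makes deoxynucleotides. It had 22.4, 23.5 and 21.5 FPKM in depleted and 90.7, 91.6 and 95.6 FPKM in scrambled libraries, and no library of one group came near the other. PNP, the purine nucleoside phosphorylase, had 9.34, 10.8 and 10.5 FPKM in depleted and 41.8, 39.8 and 40.4 FPKM in scrambled libraries. The other falls given here were the choline transporter SLC44A1 (-1.90), the scaffold gene SLC9A3R2 (-2.01), the ATP synthase subunit gene ATP5MC2 (-1.90), JTB (-1.88), RIOX2 itself and the readthrough transcript SERF2-C15ORF63 (-2.48). The readthrough spans SERF2, which did not pass (-0.086, adjusted p = 0.285) and whose groups overlap, at 71.1, 68.1 and 65.2 FPKM in depleted and 81.01, 70.8 and 65.98 FPKM in scrambled libraries. Reads of overlapping gene models cannot be separated here. In all, 14 genes fell by more than RIOX2 on this scale, which shrinks changes of low values more than those of abundant genes.

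**Figure D2:**
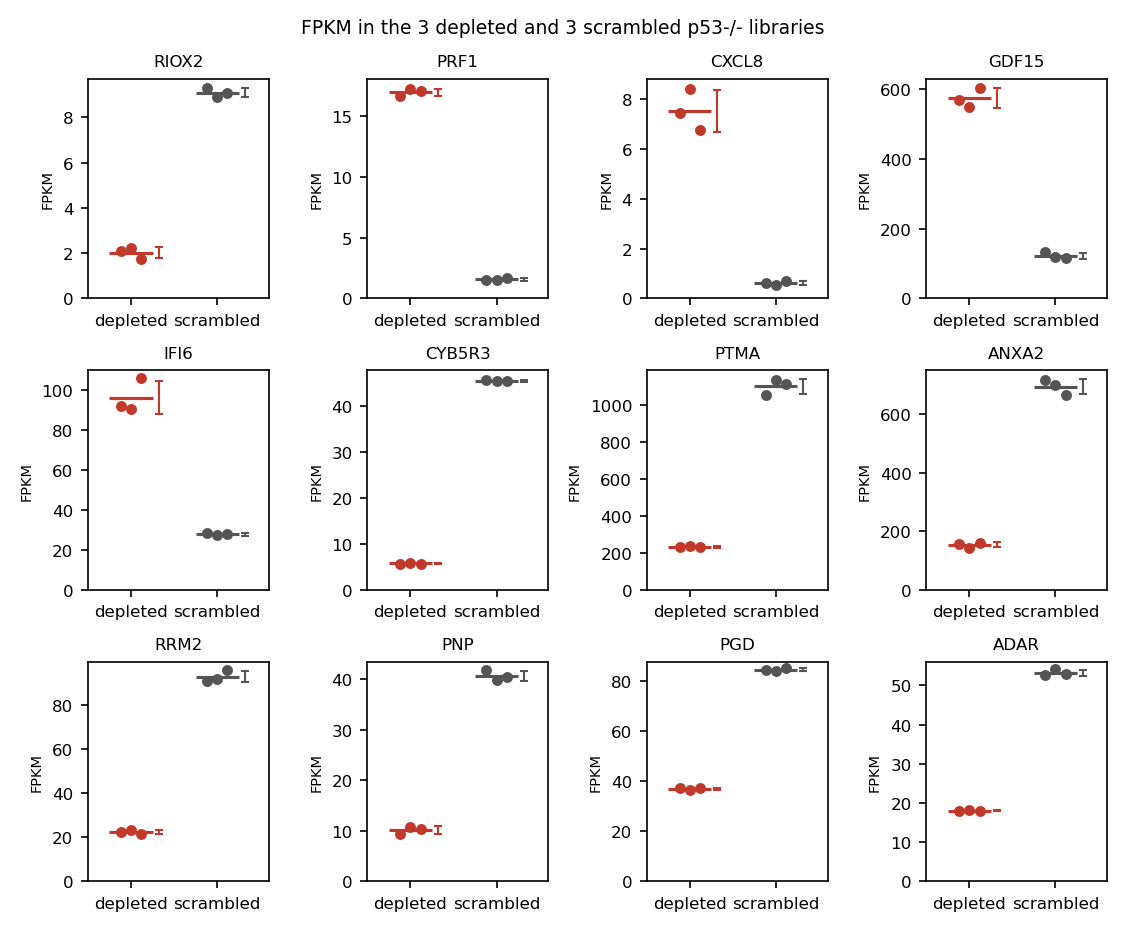
FPKM of 12 genes in the 3 depleted (red, left) and 3 scrambled (grey, right) p53-/- libraries, with each y axis starting at 0, the mean as a horizontal line and 1 SD as the bar beside it. The groups are apart in all 12 genes, with PRF1 at 16.997 and 1.56 FPKM and CYB5R3 at 5.74 and 45.4 FPKM in depleted and scrambled cells.

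Genes of the interferon response rose together. This response starts when RNA or DNA sensors induce interferons, which act through JAK kinases on transcription factors that include STAT2 and IRF9, and these bind a short element in the promoters of antiviral effector genes. Of 66 listed genes 47 passed the filter, and of these 36 (76.6%) rose and 4 (8.51%) fell, with a median log2 fold change of 0.68. Over all genes the values were 28.9%, 29.9% and -0.0028, the background for the counts of every list below. This list and those below, and their members, were chosen with earlier results of these data known. Their shares are therefore descriptions and not independent evidence of a response. Among sensors, DDX58 (RIG-I) had 10.97, 10.02 and 10.3 FPKM in depleted and 4.18, 4.85 and 4.08 FPKM in scrambled libraries, IFIH1 (MDA5) rose by 0.86, STING1 by 0.20, and the adaptor MAVS fell by 0.26. None of the 4 interferon ligand genes listed passed the filter. IFNL1, an epithelial interferon, was at 0.683, 0.727 and 0.849 FPKM in depleted and 0.0935, 0.301 and 0.215 FPKM in scrambled libraries, all below 1 FPKM but without overlap.

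Of 14 receptor, kinase and factor genes of the pathway 9 rose and 1 fell. IRF9 had 24.2, 23.3 and 29.2 FPKM in depleted and 9.81, 10.04 and 9.06 FPKM in scrambled libraries (log2 fold change 1.32, adjusted p = 3.05e-08). IRF7, which amplifies interferon production, rose by 1.37 and the feedback inhibitor SOCS1 by 1.64. Among the receptor chains, IFNAR1 was higher by 0.22 and IFNAR2 lower by 0.27, while JAK1 (0.074), TYK2 (0.013) and IRF3 (-0.045) did not pass.

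Of 29 effectors measured, 24 rose and 2 fell. IFI6, a mitochondrial and endoplasmic reticulum protein that blocks apoptosis and viral replication, had 91.9, 90.7 and 106 FPKM in depleted and 28.6, 27.2 and 27.9 FPKM in scrambled libraries (log2 fold change 1.75, SE 0.0639, adjusted p = 9.12e-10). IFI27, of the same family, had 7.82, 6.97 and 5.99 FPKM in depleted and 1.13, 1.40 and 0.973 FPKM in scrambled libraries. ISG15, the ubiquitin-like modifier, was already abundant, with 242, 239 and 266 FPKM in depleted and 136, 131 and 112 FPKM in scrambled libraries. OAS1 (1.20) and OAS3 (0.90), which make the activator of RNase L, rose, as did the RNA-binding IFIT1 (1.06), IFIT2 (1.09) and IFIT3 (0.93). ADAR, the editing enzyme that keeps the cell's own double-stranded RNA from the sensors, moved the other way. It had 18.03, 18.2 and 17.9 FPKM in depleted and 52.6, 54.2 and 52.9 FPKM in scrambled libraries (log2 fold change -1.51, adjusted p = 3.05e-11). The other effector called lower, the ISG15-conjugating enzyme UBE2L6, was lower by 0.28 (adjusted p = 0.0496), a call lost without scrambled replicate 1 or 2 or depleted replicate 2 or 3 (adjusted p = 0.184, 0.136, 0.102 and 0.165) and under 3 other alternatives (adjusted p = 0.0666 to 0.151).

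**Figure D3:**
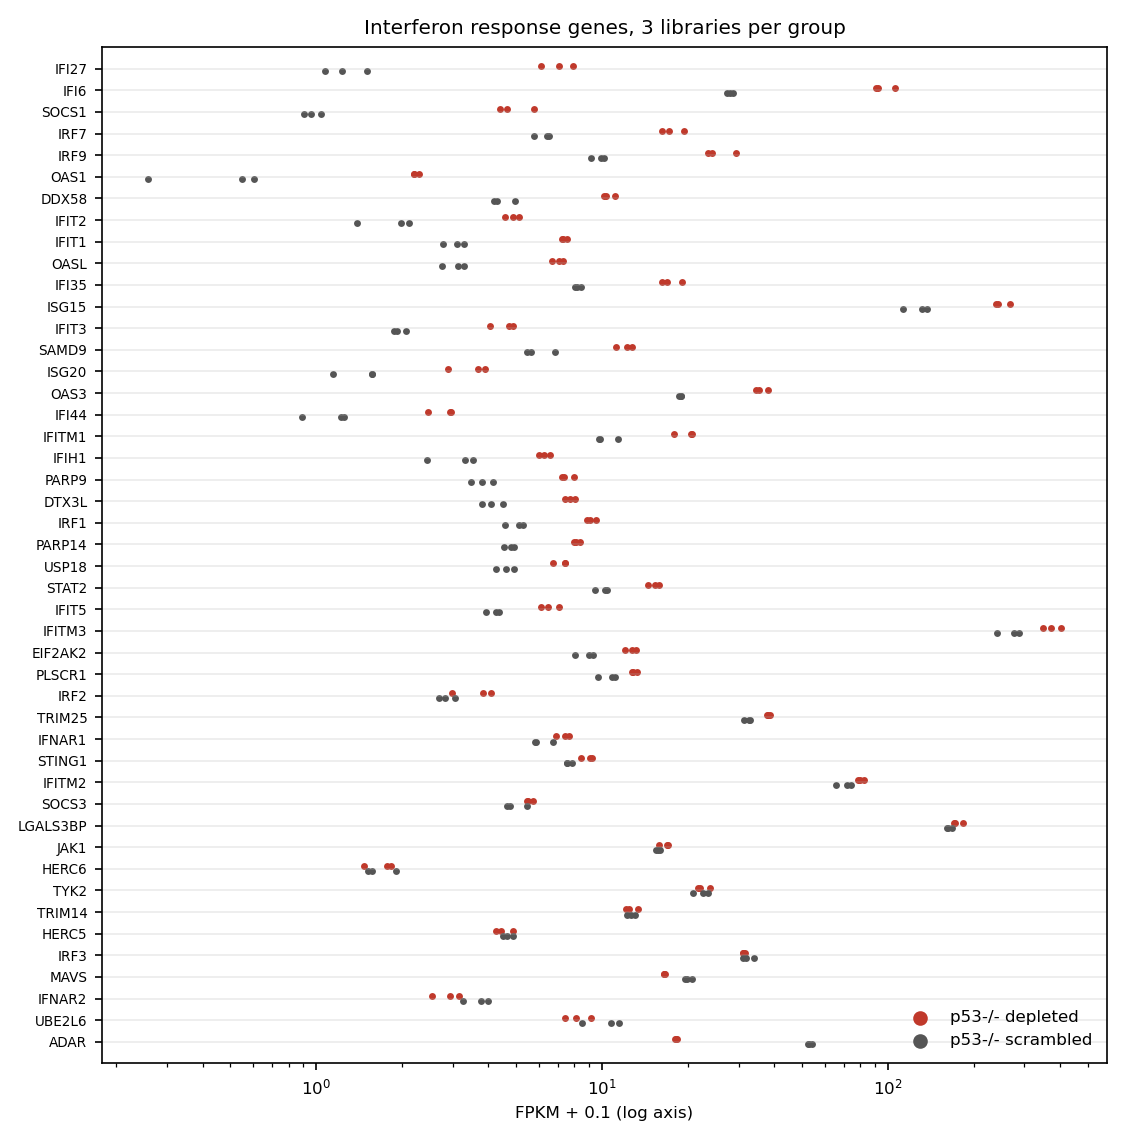
FPKM + 0.1 (log axis) of 46 of the 47 measured interferon response genes in the 3 depleted (red, upper row of each gene) and 3 scrambled (grey, lower row) p53-/- libraries, ordered by log2 fold change. The depleted libraries lie to the right for most genes from IFI27 (1.87) down and to the left for ADAR (-1.51) at the foot.

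Promoters of most of these effectors hold a common sequence. The interferon-stimulated response element, searched on both strands as GAAA, 2 bases of any kind and GAAA with overlapping matches counted, was found in 19 of the 26 effectors with a RefSeq promoter (73.1%), against 255 of 9934 promoters of tested genes (2.57%). A promoter here is 250 bases before to 50 after the gene start in RefSeq GRCh38.p14. This shows letters and not binding. The effectors were listed as interferon genes, so the share describes the list and not an effect of depletion. Matches also did not follow the direction of change gene by gene. Of the 7 effectors with no match, OAS1 (1.20), IFI35 (1.0001), PARP9 (0.84) and TRIM25 (0.24) rose, ADAR and UBE2L6 were lower and HERC6 did not pass (0.013). HERC5, with 3 matches (-0.040), and TRIM14, with 1 (-0.00090), did not pass either. The 4 effectors with the largest rises among those with the element are shown 5′ to 3′ on the strand of the gene, with the element in capitals. They are IFI27 (2 matches, chr14:94110486-94110785, plus strand), IFI6 (3 matches, chr1:27672143-27672442, minus strand), IFIT1 (2 matches, chr10:89392373-89392672, plus strand) and ISG15 (2 overlapping matches, chr1:1013247-1013546, plus strand).
IFI27: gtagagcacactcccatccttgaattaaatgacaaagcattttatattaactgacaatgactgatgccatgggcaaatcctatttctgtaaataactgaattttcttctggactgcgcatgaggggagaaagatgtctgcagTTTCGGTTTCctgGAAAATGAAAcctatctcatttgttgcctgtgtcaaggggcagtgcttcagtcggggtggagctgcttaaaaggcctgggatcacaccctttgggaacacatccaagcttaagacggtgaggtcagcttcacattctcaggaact
IFI6: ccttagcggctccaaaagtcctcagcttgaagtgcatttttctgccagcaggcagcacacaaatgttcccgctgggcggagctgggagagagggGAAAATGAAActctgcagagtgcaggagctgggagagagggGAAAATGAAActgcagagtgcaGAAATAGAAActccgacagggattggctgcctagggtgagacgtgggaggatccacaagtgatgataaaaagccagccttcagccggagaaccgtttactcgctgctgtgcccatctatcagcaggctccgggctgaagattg
IFIT1: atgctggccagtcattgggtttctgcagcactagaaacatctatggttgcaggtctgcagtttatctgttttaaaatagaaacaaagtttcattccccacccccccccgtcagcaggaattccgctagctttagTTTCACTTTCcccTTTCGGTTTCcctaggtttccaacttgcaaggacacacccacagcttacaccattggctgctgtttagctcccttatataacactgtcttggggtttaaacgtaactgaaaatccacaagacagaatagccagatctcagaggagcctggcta
ISG15: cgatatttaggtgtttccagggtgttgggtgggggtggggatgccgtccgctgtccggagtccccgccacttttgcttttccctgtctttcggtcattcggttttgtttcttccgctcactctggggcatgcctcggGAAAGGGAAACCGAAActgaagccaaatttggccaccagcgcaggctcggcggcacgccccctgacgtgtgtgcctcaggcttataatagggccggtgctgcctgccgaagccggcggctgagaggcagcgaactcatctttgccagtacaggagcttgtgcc

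MHC class I presents peptides to T cells and is induced by interferon. Of 15 measured genes 9 rose (60%) and 2 fell (13.3%), against 28.9% and 29.9% of all genes (median 0.12). Without depleted replicate 3 or with no filter on low values the rises numbered 5. The light chain B2M had 246, 239 and 243 FPKM in depleted and 189, 186 and 193 FPKM in scrambled libraries, and the peptide transporter TAP1 rose by 0.39.

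Transcription factors of the early response to growth factor and stress signals were mostly higher. AP-1 factors are dimers of the JUN, FOS, ATF and MAF families, and the dual-specificity phosphatases (DUSP) switch off the kinases that induce them. Of 37 measured genes 24 (64.9%) rose and 9 (24.3%) fell, against 28.9% and 29.9% of all genes, with a list median of 0.46. ATF3, the stress-induced member, had 24.9, 23.5 and 24.9 FPKM in depleted and 7.01, 6.20 and 6.20 FPKM in scrambled libraries. JUN had 43.9, 42.8 and 44.4 FPKM in depleted and 21.9, 20.6 and 20.8 FPKM in scrambled libraries. The one AP-1 subunit that fell was FOSL1 (FRA1), with 23.5, 26.5 and 27.2 FPKM in depleted and 58.8, 59.4 and 55.5 FPKM in scrambled libraries, while 8 other subunits rose.

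Other early factors included EGR1 (1.36), the TGF-beta inducible KLF10 (1.34) and CCN1, a matricellular YAP and SRF target, which had 22.02, 21.8 and 23.8 FPKM in depleted and 5.42, 6.13 and 5.87 FPKM in scrambled libraries. SRF itself fell by 0.82 and MYC by 0.30. The phosphatases split. DUSP5, a nuclear ERK phosphatase, had 70.6, 67.98 and 69.8 FPKM in depleted and 17.7, 18.4 and 18.3 FPKM in scrambled libraries and DUSP1 rose by 1.33, whereas DUSP6, the cytoplasmic ERK phosphatase, had 40.3, 40.2 and 39.1 FPKM in depleted and 64.7, 64.9 and 65.1 FPKM in scrambled libraries. Of the EGFR family and its ligands, AREG (1.07), HBEGF (0.94) and the receptor ERBB3 (0.52) rose, and the receptors MET (-1.09) and ERBB2 (-0.67) and the ligand TGFA (-0.42) fell. EGFR itself was lower by 0.13 (adjusted p = 0.019), a call lost without scrambled replicate 2 or 3 or depleted replicate 3 (adjusted p = 0.0636, 0.0706 and 0.0761) and under 3 other alternatives (adjusted p = 0.053 to 0.125).

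The NF-kB list was mixed. Of 23 measured genes 12 rose (52.2%) and 5 fell (21.7%), against 28.9% and 29.9% of all genes. The median was 0.22, or 0.11 when no filter on low values was set. Of the 37 listed genes 12 were below the filter. NFKB1, the precursor of the p50 subunit, had 3.58, 3.71 and 3.29 FPKM in depleted and 10.4, 9.96 and 10.01 FPKM in scrambled libraries (log2 fold change -1.30). The anti-apoptotic target BIRC3 (1.15), TNFAIP2 (0.84) and the co-regulator BCL3 (0.78) rose next to CXCL8. CXCL16 (-0.89), LIF (-0.63) and the protease gene PLAU (-0.55) fell.

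Several inhibitors of the cell cycle rose and most replication genes fell. The CDK inhibitors of the CIP/KIP and INK4 families block the kinases that start S phase. Of 7 measured genes 4 rose (57.1%), 1 fell (14.3%) and 2 did not pass, against 28.9% higher and 29.9% lower over all genes. CDKN1B (p27) had 23.3, 23.4 and 22.1 FPKM in depleted and 11.3, 12.01 and 11.3 FPKM in scrambled libraries. CDKN2B (p15) had 8.21, 7.64 and 7.97 FPKM in depleted and 2.26, 2.51 and 2.38 FPKM in scrambled libraries. CDKN1C (p57) rose by 1.27 and CDKN1A (p21), at 29.2, 31.9 and 32.5 FPKM in depleted and 14.9, 14.04 and 13.9 FPKM in scrambled libraries, by 1.07. CDKN2D was lower by 0.29, a call that was lost without scrambled replicate 1 or 3 (adjusted p = 0.0589 and 0.0532).

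Of 63 genes of replication and its licensing, all measured, 46 (73.02%) fell and 5 (7.94%) rose, against 29.9% and 28.9% of all genes. The list median was -0.37. Among the licensing genes, which load the helicase on origins, ORC6 had 6.88, 7.81 and 6.36 FPKM in depleted and 23.5, 26.7 and 24.1 FPKM in scrambled libraries. The helicase gene MCM2 had 31.1, 32.8 and 33.4 FPKM in depleted and 66.9, 64.8 and 64.03 FPKM in scrambled libraries, and MCM3 to MCM7 fell by 0.47 to 0.62. At the fork, 21 of 25 genes fell, and the DNA ligase LIG1 (-0.95) and the GINS subunit GINS4 (-0.80) fell most. In nucleotide supply, the salvage kinase DCK had 4.07, 3.66 and 3.82 FPKM in depleted and 10.7, 11.2 and 12.6 FPKM in scrambled libraries, next to RRM2. Among the regulators, CDK4 (-0.69), E2F2 (-0.75) and CCNE1 (-0.69) fell and cyclin D1 (CCND1, 0.70) and the phosphatase CDC25A (0.40) rose.

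E2F factors drive these genes in late G1. The E2F motif, searched as TTTGGCGC or TTTCGCGC on both strands, was found in 15 of 51 replication promoters (29.4%), against 221 of 9934 promoters of tested genes (2.22%), with the same caution as above. Promoters of the 2 genes that fell most among those with a match are shown with the motif in capitals, DCK (1 match, chr4:70993399-70993698, plus strand) and MCM2 (2 overlapping matches, chr3:127598161-127598460, plus strand). Both were chosen after their values were seen. Matches did not follow the direction of change one by one. Of the 15 replication genes with a match, CDC25A was higher (0.40) and CDC6 was close to unchanged (-0.053), while the rest were lower. RASD1, among the largest rises (2.23), also has a match.
DCK: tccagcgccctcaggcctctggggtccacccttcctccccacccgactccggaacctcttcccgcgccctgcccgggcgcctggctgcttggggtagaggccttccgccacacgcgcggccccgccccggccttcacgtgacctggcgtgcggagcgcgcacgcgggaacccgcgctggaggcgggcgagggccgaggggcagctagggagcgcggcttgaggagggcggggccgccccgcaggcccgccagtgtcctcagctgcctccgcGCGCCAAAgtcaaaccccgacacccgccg
MCM2: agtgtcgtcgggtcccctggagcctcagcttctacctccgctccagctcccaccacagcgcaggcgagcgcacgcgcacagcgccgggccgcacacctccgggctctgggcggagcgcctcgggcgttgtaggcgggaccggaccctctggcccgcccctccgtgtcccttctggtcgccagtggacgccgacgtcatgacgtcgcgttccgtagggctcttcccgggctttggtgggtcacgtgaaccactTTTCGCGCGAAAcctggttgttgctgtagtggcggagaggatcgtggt

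Genes of mitosis showed both directions. Of 40 measured genes 19 fell (47.5%) and 7 rose (17.5%), against 29.9% and 28.9% of all genes, with a list median of -0.17. CDC20, the activator of the anaphase-promoting complex, had 119, 121 and 131 FPKM in depleted and 181, 180.2 and 174 FPKM in scrambled libraries. The kinesin KIF4A fell by 0.59, the survivin gene BIRC5 by 0.49 and cyclin B1 (CCNB1) by 0.34. WEE1, the kinase that delays entry into mitosis, rose, with 20.6, 20.4 and 19.5 FPKM in depleted and 10.997, 11.1 and 11.96 FPKM in scrambled libraries, and so did the cytokinesis genes KIF23 (0.34) and ANLN (0.28). Set beside p53+/+ cells, the depletion effect was higher in p53-/- cells for all 40 genes, each past the threshold for the difference, where 4511 of all genes (32.9%) passed, 2286 (16.7%) higher and 2225 (16.2%) lower in p53-/-. The list median was -0.99 in p53+/+ cells.

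Even without p53, known p53 target genes changed in both directions. Of 35 measured genes 18 rose (51.4%) and 8 fell (22.9%), against 28.9% and 29.9% of all genes (median 0.15, or 0.36 with a filter of 5 FPKM). The difference test placed 23 of them lower and 5 higher in p53-/- than in p53+/+ cells. Over all genes it placed 16.2% lower and 16.7% higher. Besides GDF15 and CDKN1A, the antiproliferative BTG2 had 6.42, 7.03 and 6.59 FPKM in depleted and 2.40, 2.44 and 2.51 FPKM in scrambled libraries. Falls included the nuclease AEN (-0.79), the kinase PLK2 (-0.72) and the repair factor XPC (-0.47).

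In the BCL2 family, which sets the threshold for mitochondrial apoptosis, 10 of 13 measured genes rose (76.9%), against 28.9% of all genes. Only BCL2L2 fell, by 0.44 (7.69% of the list, against 29.9% of all genes), and the falls numbered 2 with no filter on low values. Below the filter, BCL2 averaged 0.557 FPKM in depleted and 0.825 in scrambled libraries. The BH3-only HRK, also below it, averaged 0.1185 and 0.3054 FPKM, and the groups overlapped in neither gene. BCL2A1 was at 0 in these libraries. Among the BH3-only death inducers, PMAIP1 (NOXA) had 80.04, 76.7 and 73.5 FPKM in depleted and 28.96, 32.6 and 32.4 FPKM in scrambled libraries. BIK (1.09), BBC3 (PUMA, 0.77), BCL2L11 (BIM, 0.74) and BMF (0.72) also rose. The protective MCL1, which NOXA binds, had 70.8, 70.6 and 67.1 FPKM in depleted and 36.97, 37.8 and 38.8 FPKM in scrambled libraries. RNA levels do not show whether cells died.

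**Figure D4:**
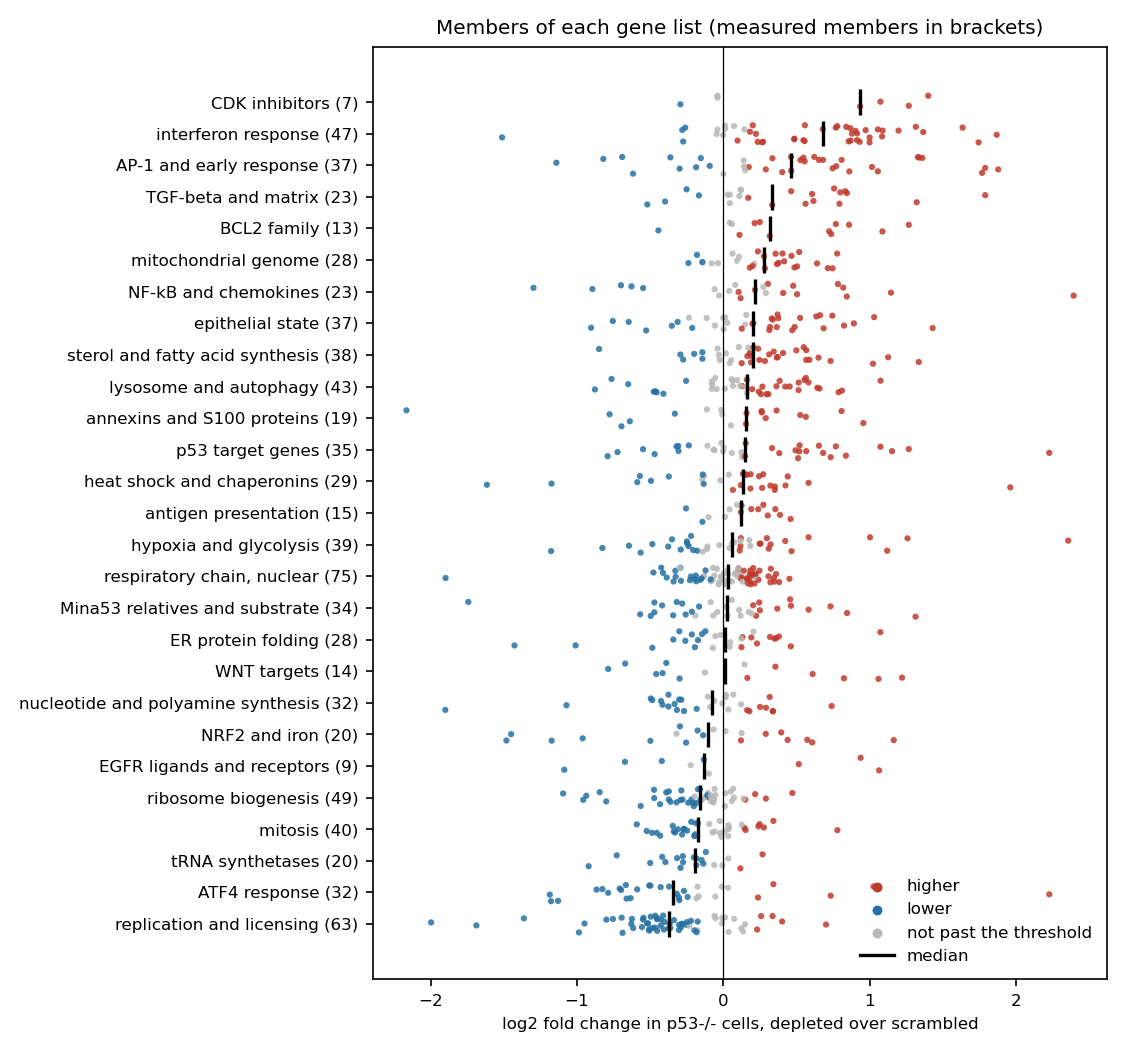
Log2 fold change (x axis) of the measured members of the gene lists in p53-/- cells, depleted over scrambled, without the lists of other cell types and of cytotoxic genes, with members past the threshold in red (higher) or blue (lower), the rest in grey and a black bar at the median. Medians of the lists shown run from 0.94 for CDK inhibitors and 0.68 for interferon genes to -0.37 for replication genes.

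Sterol synthesis genes were mostly higher in depleted cells. Cholesterol and fatty acid enzymes are controlled together by SREBP factors, which INSIG1 holds back in the endoplasmic reticulum. Of 38 measured genes 24 (63.2%) rose and 6 (15.8%) fell, against 28.9% and 29.9% of all genes (list median 0.20). Without scrambled replicate 2 or with the mitochondrial genes left out the falls numbered 3. INSIG1 had 25.05, 23.3 and 21.7 FPKM in depleted and 8.27, 8.87 and 8.75 FPKM in scrambled libraries. The squalene epoxidase SQLE had 22.9996, 21.4 and 20.9 FPKM in depleted and 12.6, 13.03 and 12.5 FPKM in scrambled libraries, and MSMO1 (1.13), FDFT1 (0.59) and the sterol carrier STARD4 (1.02) rose as well. The desaturase FADS1 fell by 0.85 and the SREBP escort SCAP by 0.29. In the difference test 20 of the 38 members had an effect above that in p53+/+ cells and 3 below it, against 16.7% and 16.2% of all genes. The list median in p53+/+ cells was -0.00050. A sterol element, searched in promoters on both strands as TCAC, any base and CCAC, was found in 0 of 15 cholesterol enzyme promoters. It was found in 109 of 9934 promoters of tested genes (1.10%).

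Genes of hypoxia and glucose metabolism went both ways. Among 39 genes of hypoxia and glycolysis 15 rose (38.5%) and 14 fell (35.9%), against 28.9% and 29.9% over all genes (median 0.059). The HIF targets NDRG1 (1.26), BHLHE40 (1.12) and ANGPTL4 (1.003) rose with SLC2A3. VEGFA, the angiogenic factor, had 8.04, 7.20 and 8.42 FPKM in depleted and 18.6, 19.05 and 19.5 FPKM in scrambled libraries, and the glycolytic enzymes PFKL (-0.64) and HK2 (-0.56) fell. The difference test placed 32 of the 39 members higher and 1 lower in p53-/- cells, against 16.7% and 16.2% of all genes. The list median in p53+/+ cells was -0.61.

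PGD and TKT encode enzymes of the pentose phosphate pathway, which makes NADPH and ribose, and were lower in depleted cells. PGD, which produces NADPH, had 37.1, 36.4 and 37.4 FPKM in depleted and 84.5, 84.1 and 85.2 FPKM in scrambled libraries. The transketolase TKT had 72.1, 78.3 and 80.9 FPKM in depleted and 153, 157 and 143 FPKM in scrambled libraries, so the groups were apart for both. These belong to a list of 20 measured NRF2 target and iron genes in which 7 rose (35%) and 9 fell (45%), against 28.9% and 29.9% of all genes. The antioxidant enzyme SRXN1 fell by 1.48, whereas OSGIN1 (1.17), the ferritin light chain FTL (0.57) and the malic enzyme ME1 (0.61) rose.

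In nucleotide synthesis, 6 of 7 pyrimidine genes fell and none rose past the threshold, with CAD, the enzyme of the first 3 steps, at -0.50. IMPDH1, which commits purines to guanine nucleotides, had 16.6, 17.2 and 17.4 FPKM in depleted and 38.5, 36.2 and 36.2 FPKM in scrambled libraries. Of 10 polyamine genes 6 rose, 1 fell and 3 did not pass (median 0.17). Among them the catabolic SAT1 rose by 0.74 and the synthetic ODC1 fell by 0.41. Over the 32 measured genes of nucleotide and polyamine synthesis 8 rose (25%) and 14 fell (43.8%), against 28.9% and 29.9% of all genes. The rises numbered 5 without depleted replicate 1.

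Most genes of the ATF4 list were lower. ATF4 is the transcription factor of the integrated stress response, and it drives amino acid synthesis, transport and charging of tRNA. ATF4 had 100.5, 129 and 143 FPKM in depleted and 217, 203 and 185 FPKM in scrambled libraries. Of 32 measured genes 21 (65.6%) fell and 5 (15.6%) rose, against 29.9% and 28.9% of all genes (list median -0.34), and 8 of 9 amino acid enzymes fell. MTHFD2, of mitochondrial one-carbon metabolism, had 26.6, 26.6 and 25.2 FPKM in depleted and 56.5, 58.9 and 59.5 FPKM in scrambled libraries. The amino acid transporter SLC7A5 fell by 0.87 and CHAC1, which degrades glutathione, by 1.19. DDIT3 (CHOP) rose, with 30.7, 29.6 and 32.2 FPKM in depleted and 14.4, 14.3 and 15.2 FPKM in scrambled libraries, as did GDF15 and SESN2 (0.73). Of 20 cytosolic tRNA synthetases 15 (75%) fell, against 29.9% of all genes, led by NARS1 (-0.92) and KARS1 (-0.73).

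Chaperones of the endoplasmic reticulum did not move one way. Of 28 measured genes 10 rose (35.7%) and 11 fell (39.3%), against 28.9% and 29.9% of all genes (list median 0.013). HYOU1, a large chaperone of this compartment, had 15.97, 15.8 and 16.2 FPKM in depleted and 45.4, 44.7 and 43.8 FPKM in scrambled libraries. XBP1, the factor spliced by IRE1, had 18.3, 13.6 and 16.4 FPKM in depleted and 32.7, 37.9 and 29.3 FPKM in scrambled libraries. HSPA5 (BiP) rose by 0.46 and DNAJB9 by 1.07. Among 29 heat shock genes and chaperonins 17 rose (58.6%) and 8 fell (27.6%), against the same shares of all genes. Of 14 cytosolic chaperones 9 rose and 3 fell, and of 8 subunits of the chaperonin CCT 5 rose and 1 fell. HSPB8 rose most. The mitochondrial chaperonin HSPD1 (-1.61), its partner HSPE1 (-0.49) and the cytosolic HSP90AB1 (-1.17) fell, and the first and last have pseudogene copies that may share reads.

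Ribosome production, the process around Mina53 in the nucleolus, showed more falls than rises. Of 49 measured genes 27 (55.1%) fell and 4 (8.16%) rose, against 29.9% and 28.9% of all genes (list median -0.16). Nucleolin (NCL), the abundant RNA-binding protein of the nucleolus, had 102, 102 and 102 FPKM in depleted and 214, 220.3 and 220.3 FPKM in scrambled libraries. TCOF1, the treacle scaffold of RNA polymerase I, fell by 0.94. POLR1A, the catalytic subunit of that polymerase, had 6.38, 6.66 and 6.46 FPKM in depleted and 12.4, 12.3 and 12.6 FPKM in scrambled libraries, and NAT10, which acetylates ribosomal RNA, fell by 0.80.

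The relatives of RIOX2 moved in both directions. Of 24 JmjC oxygenase genes 10 rose (41.7%) and 6 fell (25%), RIOX2 included, against 28.9% and 29.9% of all genes. The closest relative RIOX1 had 5.78, 4.82 and 5.63 FPKM in depleted and 3.69, 4.51 and 3.69 FPKM in scrambled libraries (log2 fold change 0.37, adjusted p = 0.00186). The H3K27 demethylase KDM6B had 25.1, 23.6 and 23.9 FPKM in depleted and 9.08, 8.87 and 9.41 FPKM in scrambled libraries. KDM5B (0.85) and KDM4B (0.73) rose and KDM5C (-0.57) fell. RPL27A, the substrate, had 103, 102 and 108 FPKM in depleted and 119, 118 and 113 FPKM in scrambled libraries, a fall of 0.16 on the log2 scale (adjusted p = 0.000616), and RPL8, the substrate of RIOX1, fell by 0.47.

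All 13 protein-coding transcripts of the mitochondrial genome rose (median 0.42), as the shares above show. CYTB had 2820, 2800 and 2822 FPKM in depleted and 1663, 1738 and 1743 FPKM in scrambled libraries. Of 15 nuclear genes that copy or process mitochondrial RNA 5 rose, among them FASTKD5 (0.78), and 3 fell, among them the polymerase POLRMT (-0.18), or 1 with the mitochondrial genes left out. Those shares were 33.3% and 20%, against 28.9% and 29.9% of all genes. The 75 nuclear genes of the respiratory chain were mixed, with 27 higher (36%) and 19 lower (25.3%) and a median of 0.034, also near the shares of all genes. ATP5MC2, 1 of 3 genes that encode the same ATP synthase ring subunit, stood apart with 29.5, 30.1 and 25.4 FPKM in depleted and 104, 119 and 102 FPKM in scrambled libraries, whereas ATP5MC1 (0.19) and ATP5MC3 (0.16) rose, ATP5MC3 not without depleted replicate 3 (adjusted p = 0.0528). After removal of the mitochondrial genes and rescaling, 4439 genes over the whole table were called higher and 3574 lower, so which direction held more genes depended on this scaling.

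Lysosome and autophagy genes rose more often than they fell, at 22 (51.2%) and 8 (18.6%) of 43 measured, against 28.9% and 29.9% of all genes. MAP1LC3B, whose lipid-linked protein coats autophagosomes, had 94.5, 87.1 and 85.8 FPKM in depleted and 40.6, 42.9 and 41.8 FPKM in scrambled libraries. The cargo receptors SQSTM1 (p62), with 212, 211 and 218 FPKM in depleted and 136, 136 and 133 FPKM in scrambled libraries, and OPTN (0.79) rose, as did the cholesterol exporter NPC1 (0.64). WIPI2, which recruits the conjugation machinery, had 7.46, 6.95 and 7.08 FPKM in depleted and 14.03, 14.2 and 13.7 FPKM in scrambled libraries. The proton pump subunit ATP6V1A (-0.76) and the membrane protein LAMP1 (-0.65) fell too.

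Genes of the epithelial state list rose more often than they fell. The list holds junction genes, keratins and filaments, and transcription factors. Of 37 measured genes 21 rose (56.8%) and 7 fell (18.9%), against 28.9% and 29.9% of all genes (list median 0.21). Not all members are epithelial, since the mesenchymal factors SNAI2 and ZEB2 are listed, though both were below the filter on low values. KRT80 had 7.27, 6.54 and 7.13 FPKM in depleted and 2.13, 1.99 and 1.76 FPKM in scrambled libraries, and the tight junction gene CLDN4 rose by 0.89. KRT18, the main keratin of simple epithelia, had 245, 247 and 253 FPKM in depleted and 472, 468 and 454 FPKM in scrambled libraries, while its partner KRT8 did not pass (-0.057, adjusted p = 0.247). E-cadherin (CDH1) had 5.24, 5.34 and 5.59 FPKM in depleted and 8.89, 8.69 and 9.44 FPKM in scrambled libraries, and the epithelial factor GRHL2 fell by 0.75. The intestinal factor CDX2 rose by 0.75. S100A10, the binding partner of ANXA2, went opposite to it, with 283, 279 and 275 FPKM in depleted and 143, 152 and 135 FPKM in scrambled libraries. The annexins ANXA5 (-0.69) and ANXA1 (-0.64) fell, but the family went both ways. Of 10 measured annexins 4 rose (40%) and 3 fell (30%), against 28.9% and 29.9% of all genes, with a median of -0.0096. Of 9 measured S100 genes 6 rose (66.7%) and 2 fell (22.2%), against the same shares of all genes.

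Among 23 measured TGF-beta and matrix genes 13 rose (56.5%) and 4 fell (17.4%), against 28.9% and 29.9% of all genes (list median 0.34). With a filter of 5 FPKM the rises numbered 7 and the median was 0.17, and with no filter it was 0.12. The growth factor gene TGFB1 rose by 0.79 and the signal mediator SMAD4 fell by 0.52. Fibroblast markers summed to 11.7 to 12.2 FPKM in depleted and 7.07 to 7.62 FPKM in scrambled libraries. Only COL1A1 of the 7 markers passed the filter, and COL1A2, which fibroblasts express with it, was listed at 0 in all 6 of these libraries. WNT targets were divided, with 6 rises (42.9%) and 6 falls (42.9%) in 14 measured genes, against 28.9% and 29.9% of all genes. The feedback genes AXIN2 (1.06) and SP5 (1.22) rose, and the stem cell surface genes PROM1 (-0.79) and CD44 (-0.67) fell.

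**Figure D5:**
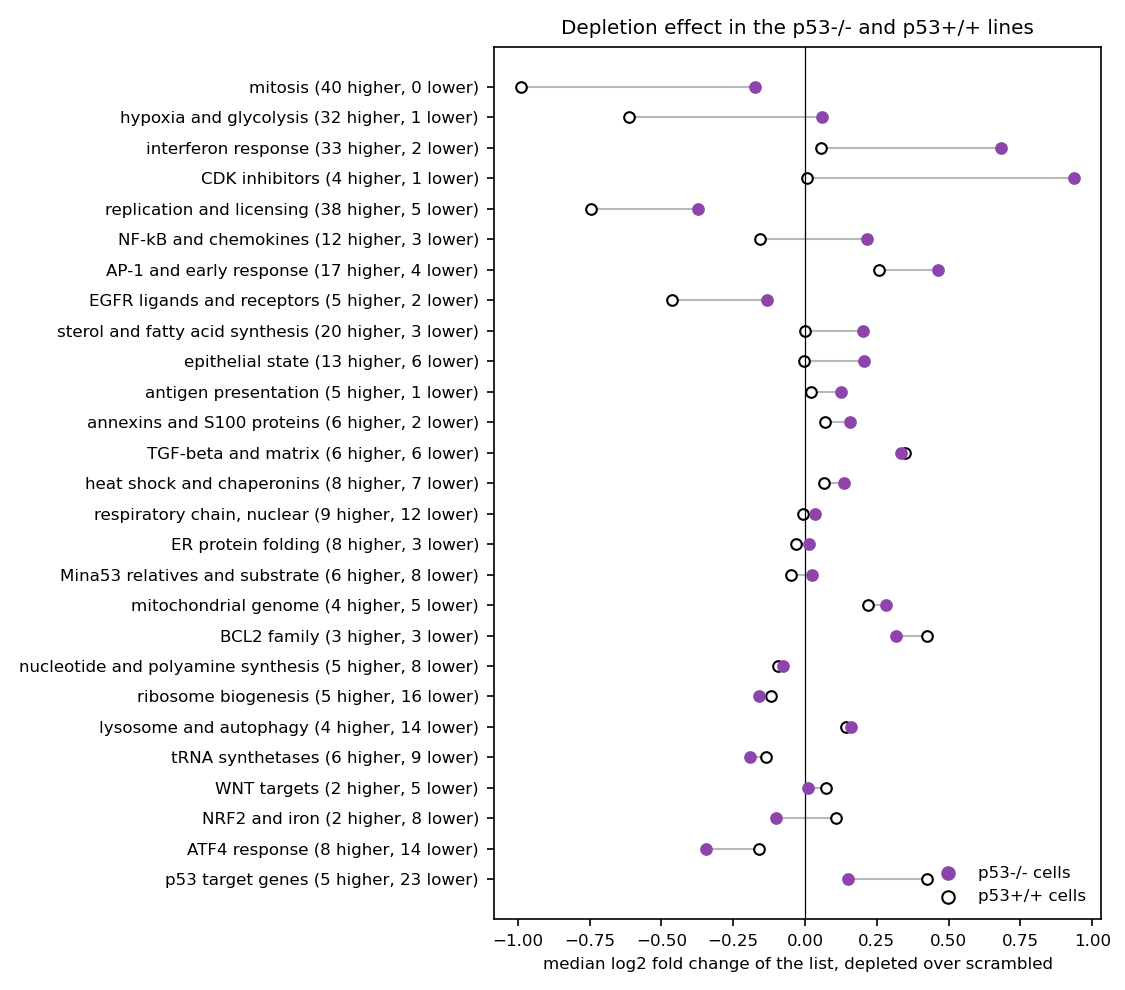
Median log2 fold change after depletion (x axis) of the gene lists, those of other cell types and cytotoxic genes left out, in p53-/- cells (filled) and p53+/+ cells (open), with the number of members whose effect was higher or lower in p53-/- cells by the test of the difference in brackets. Mitosis lies at -0.17 in p53-/- and -0.99 in p53+/+ cells, and interferon genes at 0.68 and 0.056.

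The test of the difference sets changes in p53-/- cells beside those in p53+/+ cells. RIOX2 itself changed by -1.74 in p53-/- and -1.19 in p53+/+ cells, so line and depth of depletion cannot be told apart. Of all genes 2286 (16.7%) had a higher and 2225 (16.2%) a lower effect in p53-/- cells. With the mitochondrial genes left out these counts were 1781 and 2806. For the interferon list 33 of 47 genes had an effect above that in p53+/+ cells and 2 below it, for AP-1 and early genes 17 and 4 of 37, and for replication genes 38 and 5 of 63, whose median was lower in p53+/+ cells (-0.74). For lysosome and autophagy genes 14 of 43 had a lower effect and 4 a higher one. The ATF4 list had 14 members lower and 8 higher in p53-/- cells. Among the 15 largest falls, 12 were deeper in p53-/- cells, RIOX2 among them.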

How the data were processed

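The authors deposited 1 table of 36615 gene symbols by 12 libraries whose header names no unit. The deposited values were read as FPKM, since they are not whole numbers and neighbouring mitochondrial genes of unequal length have like values. Per the submitters' processing notes the authors used hg19. Aligner, quantifier and annotation were not given in the sources used here. No whole-read steps appear among low values, so depth is unknown and no counting interval is given. A KO prefix in a column name was taken to mean p53-/- cells.

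Values were tested as log2(FPKM + 1) by limma (version 3.58.1, R 4.3.3) with a mean-variance trend, in 1 fit with 1 mean per group over all 12 libraries (8 residual degrees of freedom). Genes with at least 1 FPKM in at least 3 of the 12 libraries were kept. By the 6 p53-/- libraries alone, 12915 genes reach 1 FPKM in at least 3. P-values were adjusted by the Benjamini-Hochberg method over 13728 genes, with a threshold of 0.05. The script was tested on simulated data.

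The 15 largest rises and falls named are those that passed, whose higher p53-/- group averaged 5 FPKM or more and whose libraries did not overlap. From each of 35 gene lists, mainly the members with the smallest adjusted p were named, up to 4 each way, with others whose role a sentence needed. Members and lists were chosen with earlier results of these data known. Of 988 list entries 974 matched a symbol directly, 2 by an older symbol, and 12 were not analysed here. Alternatives were another pseudocount and filter, other scalings, a replicate block, the p53-/- libraries alone and leaving out each library. Promoters come from RefSeq GRCh38.p14, matched by symbol. Besides the motifs described in the Results, the element TGACGTCA was searched. It was found in 1 of 27 promoters of the ATF4 list (3.70%) and 3 of 27 of the AP-1 and early response list (11.1%). Among promoters of tested genes it was found in 333 of 9934 (3.35%). No other element of ATF4 or AP-1 was searched, so these shares do not show whether such elements are present. Results for some genes are not reported here.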

Additional observations from a re-analysis of the deposited data

Results flagged for a closer look

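The effect of depletion differed between the p53-/- and p53+/+ lines for 24 of the genes named among the 15 largest rises and the 15 largest falls by the test of the difference itself (p53-/- effect minus p53+/+ effect, limma adjusted p under 0.05 over all genes, 3 libraries in each group). Among the rises in p53-/- cells, 9 had a higher effect there. CXCL8 differed by 1.99 on the log2 scale, with effects of 2.39 in p53-/- and 0.41 in p53+/+ cells, and IFI27 by 1.37, with 1.87 in p53-/- and 0.50 in p53+/+ cells. The other differences were 1.16 for CCN1, 1.03 for SLC2A3, 0.85 for RASD1, 0.75 for IFI6, 0.72 for HSPB8, 0.60 for DUSP5 and 0.48 for ATF3. PRF1 (-0.58), GDF15 (-0.60) and MIR3189 (-1.13) rose less in p53-/- cells. With a pseudocount of 0.1 the difference was 0.41 for RASD1 (adjusted p = 0.348) and -0.94 for MIR3189 (adjusted p = 0.0979), and neither passed.

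Among the falls, RRM2 alone fell less in p53-/- cells, by 0.23, a call lost with the mitochondrial genes left out (adjusted p = 0.0706) or with the replicate block (adjusted p = 0.0672). The readthrough transcript SERF2-C15ORF63 fell by 2.48 in p53-/- and by 0.24 in p53+/+ cells, a difference of -2.24. Deeper falls in p53-/- cells were also found for SLC44A1 (-0.71), CYB5R3 (-0.71), PNP (-0.64), SLC9A3R2 (-0.63), JTB (-0.63), ATP5MC2 (-0.56), ANXA2 (-0.45), ANXA2P2 (-0.43), PTMA (-0.24) and RIOX2 (-0.55). The call for SLC44A1 was lost with a pseudocount of 0.1 (adjusted p = 0.0521), with no filter on low values (adjusted p = 0.159) and in 7 of the single-library omissions. The depleted gene itself was thus lower relative to its control in p53-/- than in p53+/+ cells, and its part in the other differences was not tested.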

How the results depend on the processing

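The count of genes past a log2 fold change of 1 was 359, and 803 with a pseudocount of 0.1. Leaving out 1 library at a time gave 7323 to 7598 genes past the threshold for depletion in p53-/- cells (3567 to 3837 higher, 3756 to 3843 lower), 357 to 371 past a log2 fold change of 1, and a RIOX2 change of -1.79 to -1.67. For the difference of the effects it gave 3824 to 4444 genes (1917 to 2330 higher and 1839 to 2149 lower in p53-/-). With mitochondrial genes left out the difference was called in 1781 genes higher and 2806 lower, so its balance turns with the scaling. Replicate numbers did not pair the libraries (correlations of same-numbered deviations -0.061, -0.042 and -0.10), and the fit with the replicate block called 7504 genes. Of 200 named genes, 195 kept the side of the threshold of their p53-/- effect under every alternative run. ATP5MC3, CDKN2D, EGFR, UBE2L6 and RNR1 did not. The difference lost its call for RASD1 (0.41, adjusted p = 0.348), MIR3189 (-0.94, adjusted p = 0.0979) and SLC44A1 (-0.97, adjusted p = 0.0521) with the pseudocount of 0.1, for RRM2 with mitochondrial genes left out (adjusted p = 0.0706) or with the replicate block (adjusted p = 0.0672), and for SLC44A1 with no filter on low values (adjusted p = 0.159) and in 7 of the single-library omissions (adjusted p = 0.0669 to 0.103). No direction reversed. The interferon median was 0.40 with no filter on low values, when the 19 members below the filter enter, and the rises then numbered 45.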

Other observations

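Small RNAs of the mitochondrial genome moved against its messenger RNAs. Of 22 mitochondrial tRNA genes tested 14 (63.6%) fell, against 29.9% of all genes, and 4 rose in p53-/- cells, with a median log2 fold change of -0.94 and of -0.55 in p53+/+ cells. TRNF, the tRNA for phenylalanine at the start of the heavy-strand transcript, had 91.2, 103 and 106 FPKM in depleted and 291, 321 and 290.2 FPKM in scrambled p53-/- libraries (log2 fold change -1.58), and its change in p53+/+ cells was -0.048 (difference -1.54, adjusted p = 4.51e-06). TRNV, which lies between the ribosomal RNA genes, had 109, 110.4 and 109.9 FPKM in depleted and 227, 259 and 242 FPKM in scrambled libraries, with a difference of -1.28 (adjusted p = 7.25e-07). Its neighbour RNR2 rose by 0.66, and RNR1 did not pass (-0.075, adjusted p = 0.196; without scrambled replicate 1 adjusted p = 0.0456). These 4 genes were chosen after their values were seen. Transfer RNAs are short and carry no long poly(A) tail, and the libraries were made from poly(A) RNA.

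Of 183 small nucleolar RNA genes tested, 6 (3.28%) rose, against 28.9% of all genes, and 55 (30.1%) fell, a share near the 29.9% of all genes. The median log2 fold change was -0.25. These RNAs guide modification of ribosomal RNA in the nucleolus, and most lie in introns of other genes, whose reads cannot be separated from theirs here.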
